A study of Mus musculus with 64 samples.

Results

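The genes described are the subunits of the transcription factor NF-κB and a set of genes grouped here as its feedback inhibitors. They were followed at the RNA level in murine bone marrow-derived macrophages (BMMs). Members were chosen by symbol, as Rela, Relb, Rel, Nfkb1 and Nfkb2 for the subunits and Nfkbia, Nfkbie, Nfkbiz, Tnfaip3 and Bcl3 for the inhibitors. They are 10 of 55487 genes counted, and all 10 passed the filter on low counts that 14537 genes passed. BMMs were grown with medium conditioned by the fibroblastic line L929 as the source of macrophage colony-stimulating factor, from female wild-type (Ahr+/+) C57BL/6JRj mice and from AhR-knockout (Ahr-/-) mice bred onto the same strain, which lack the aryl hydrocarbon receptor (AhR), all aged 8 to 12 weeks. Cells were exposed for 6 h to benzo[a]pyrene (BaP, 1 µM), to indole-3-carbinol (I3C, 10 µM) or to the vehicle DMSO (0.01%), and then activated for 3 h or 20 h with heat-killed Salmonella Enteritidis (hk S.E., 10000000 per ml). A further DMSO group of each genotype and time received no hk S.E. and is called unactivated here. These 16 groups held 4 RNA-seq libraries each. All ligand groups were activated, so that no ligand was measured in resting cells, and the study's methods give 4 mice per genotype.

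NF-κB is a family of dimers of Rel-homology proteins. Rela, Relb and Rel carry a transactivation domain, whereas Nfkb1 and Nfkb2 encode long precursors that are processed to the DNA-binding subunits of the classical and the alternative pathway. In resting macrophages the dimers are held in the cytosol by IκB proteins. Bacterial ligands of Toll-like receptors activate the IκB kinase complex, the IκB proteins are degraded, and the freed dimers bind κB sites near cytokine and chemokine genes and near the genes of their own inhibitors. RelB is a known partner of AhR, with which it can bind its own kind of response element.

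Several members carry κB sites at their own start sites, and these sequences are shown because the members moved together with activation. RefSeq start-site windows on GRCm38.p6, from 250 bases before to 50 bases after a start, were at hand for 7 of the 10 members, and Relb, Nfkb1 and Nfkbiz are named only. The κB consensus was searched on both strands, and overlapping matches on opposite strands were counted separately. At least 1 match stood in a window of 6 of these 7 genes, where 5.14% of 27025 genes with such windows hold one. In the 4 whole windows below, printed 5′ to 3′ on the strand of the gene, capitals mark the matches. Nfkbia is at chr12:55492598-55492897 (minus strand), Nfkb2 at chr19:46304487-46304786 (plus strand), Tnfaip3 at chr10:19015361-19015660 (minus strand) and Rela at chr19:5637291-5637590 (plus strand), and Rela holds no match.
Nfkbia: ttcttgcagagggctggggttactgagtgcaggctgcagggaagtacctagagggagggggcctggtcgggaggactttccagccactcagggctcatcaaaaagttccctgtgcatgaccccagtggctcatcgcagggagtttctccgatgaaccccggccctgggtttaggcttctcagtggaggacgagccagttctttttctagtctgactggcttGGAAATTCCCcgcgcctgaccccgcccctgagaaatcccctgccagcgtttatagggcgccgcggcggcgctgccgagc
Nfkb2: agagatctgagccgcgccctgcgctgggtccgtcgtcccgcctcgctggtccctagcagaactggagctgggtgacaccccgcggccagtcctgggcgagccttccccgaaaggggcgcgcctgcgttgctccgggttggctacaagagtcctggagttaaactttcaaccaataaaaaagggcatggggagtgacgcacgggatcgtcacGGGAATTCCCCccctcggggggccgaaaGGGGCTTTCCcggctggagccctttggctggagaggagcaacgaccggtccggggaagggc
Tnfaip3: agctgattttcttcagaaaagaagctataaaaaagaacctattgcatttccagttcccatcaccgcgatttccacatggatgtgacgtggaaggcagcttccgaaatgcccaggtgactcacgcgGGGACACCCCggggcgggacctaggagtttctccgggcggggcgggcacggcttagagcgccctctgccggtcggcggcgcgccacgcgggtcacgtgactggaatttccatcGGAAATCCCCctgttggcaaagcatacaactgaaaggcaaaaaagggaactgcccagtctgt
Rela: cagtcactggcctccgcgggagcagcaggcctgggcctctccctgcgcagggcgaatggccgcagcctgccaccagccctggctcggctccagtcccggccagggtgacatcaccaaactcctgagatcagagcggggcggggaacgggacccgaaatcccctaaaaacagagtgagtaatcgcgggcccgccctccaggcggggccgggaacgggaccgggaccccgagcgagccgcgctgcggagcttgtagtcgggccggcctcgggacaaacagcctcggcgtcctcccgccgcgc

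The match of Nfkbia began 29 bases before the start. In the Nfkb2 window shown, matches began 39, 38 and 11 bases before the start, the first 2 overlapping on opposite strands. Those of Tnfaip3 began 125 and 12 bases before it. RefSeq gives Nfkb2 2 further starts and Tnfaip3 1 further start downstream, whose windows held 2, 1 and 0 matches. The 2 further Nfkb2 windows overlap and share 1 of these matches. Rel, Nfkbie and Bcl3 are shown by their matches with 10 flanking bases on each side, which began 92 and 106 bases before the start in Rel and Nfkbie and 3 bases after it in Bcl3. Rel also held an overlapping match on the opposite strand that began 91 bases before the start. Its last base is not in capitals below.
Rel: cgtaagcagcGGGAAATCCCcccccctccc
Nfkbie: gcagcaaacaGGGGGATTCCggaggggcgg
Bcl3: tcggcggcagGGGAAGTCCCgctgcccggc

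The AhR response element GCGTG was searched in the same windows on both strands and stood in at least 1 window of Rel, Nfkb2, Nfkbie and Tnfaip3, where 35.2% of all genes hold it. The response element bound with RelB, GGGTGCAT, stood in no window of the 7 members and in 0.607% of all genes. A match of letters is a description of the sequence and was set against no binding data.

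By the annotation of mm10, Rela (chromosome 19, 5637483 to 5648130) and Nfkb2 (chromosome 19, 46304320 to 46312385) lie 40.7 Mb apart, and Relb (chromosome 7, 19606217 to 19629438) and Bcl3 (chromosome 7, 19808462 to 19822770) are separated by 179 kb. Nfkbia (chromosome 12, 55489410 to 55492647) is the member on the chromosome of Ahr, with 20.0 Mb between them. Rel lies on chromosome 11 (23736847 to 23770970), Nfkb1 on chromosome 3 (135584655 to 135691547), Nfkbie on chromosome 17 (45555703 to 45563169), Nfkbiz on chromosome 16 (55811375 to 55838899) and Tnfaip3 on chromosome 10 (19000910 to 19015657). All are protein-coding genes, and their counts are of read pairs on exons of the gene's strand.

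The depth of the libraries was 12152496 to 233047331 gene counts, with 24499165 as the median and 50644601 as the second highest. The members had between 188 and 49353 counts per library. Ahr counts ranged from 1.09 to 14.9 CPM (read counts of a gene per unit of library size) in Ahr+/+ and from 5.11 to 28.1 in Ahr-/- BMMs, and since whole-gene counts do not show a deleted exon they do not check the knockout. Ahrr, a repressor that AhR induces, rose with BaP in Ahr+/+ BMMs by 3.36 on the log2 scale at 3 h (SE 0.26, edgeR adjusted p = 7.13e-14), while its value in Ahr-/- BMMs was -0.33 (SE 0.46, adjusted p = 0.859). The 8 macrophage markers looked at all passed the filter and summed to 17349 to 32713 CPM, against at most 6.27 for the lists of T cells, B cells or mast cells and basophils. Fibroblast markers summed to 0.188 to 1.58 CPM in the Ahr-/- libraries numbered 1 and 2, to 2.69 to 8.35 in those numbered 3 and 4, and to 0.0736 to 2.76 in Ahr+/+ libraries. The Ahr-/- libraries thus fell into 2 kinds by number, and where a call of a member changed with 1 kind alone, the value is given below. Fits with 1 kind alone were added after the data were seen and keep 2 libraries per Ahr-/- group. Their adjusted p describe these libraries and are no separate support for a call. In bulk RNA, fewer cells of a type and less RNA per cell cannot be told apart.

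Levels below are CPM after TMM normalization, listed in the order of the replicate numbers. Changes are log2 fold changes between group means with their standard error (SE), and a DEG is a gene with an adjusted p below 0.01 in edgeR's quasi-likelihood test over 14537 genes.

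Activation with hk S.E. for 3 h raised all 10 members in both genotypes. In Ahr+/+ BMMs, 24.2% of all genes tested were higher at this threshold, and in Ahr-/- BMMs 25.5%. The median change of the members was 3.30 and 3.33 on the log2 scale, against a median of -0.10 and -0.08 over all genes tested. The genes grouped as inhibitors spanned changes of 2.43 (Bcl3) to 6.18 (Nfkbiz) and subunits 1.46 to 3.72 in Ahr+/+ BMMs. The summed neutrophil markers moved the same way, from 3.32 to 16.1 CPM in unactivated to 31.7 to 88.9 CPM in activated libraries at 3 h of both genotypes, with 3 of the 6 genes passing the filter. Over all libraries Ngp, Ltf and Camp reached 56.4, 27.7 and 5.29 CPM, and Ly6g, Mpo and Elane 0.482, 0.275 and 0.197 CPM. Their part in the result was not tested.

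Rela, the main transactivating subunit of the classical pathway, was present in resting cells at 84.5, 78.2, 105 and 90.2 CPM and reached 249, 253, 252 and 231 CPM after 3 h of hk S.E. in Ahr+/+ BMMs. Relb, which pairs mainly with the product of Nfkb2, went from 26.8, 27.1, 40.7 and 31.3 to 100.2, 92.8, 113 and 98.7 CPM. The changes of 1.46 (SE 0.09) and 1.69 (SE 0.13) were the smallest of the 10, and no activated library overlapped the unactivated ones, as in 62.8% of all genes. Rel, the subunit known from lymphocytes and from the induction of interleukin-12 in macrophages, rose from 38.2, 44.6, 29.6 and 38.3 to 488, 533, 485 and 484 CPM, a change of 3.72 (SE 0.20). Nfkb1 rose from 107, 110.4, 118 and 113 to 1102, 1083, 1145 and 1027 CPM and Nfkb2 from 71.6, 69.98, 104 and 78.1 to 741, 717, 779.6 and 683 CPM. Both precursor genes had larger changes than Rela and Relb, of 3.28 (SE 0.10) and 3.18 (SE 0.14).

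Nfkbia encodes IκBα, the inhibitor that is degraded and resynthesized in each round of NF-κB signalling. It rose from 52.7, 55.0, 74.8 and 60.8 to 1171, 1217, 1276 and 1188 CPM in Ahr+/+ BMMs, a change of 4.32 (SE 0.14). Nfkbie, the gene of IκBε, rose from 28.0, 31.6, 34.1 and 34.0 to 316, 316, 335 and 307 CPM. Nfkbiz and Tnfaip3 had the largest changes of all members. Nfkbiz encodes the nuclear protein IκBζ, which acts on chromatin-bound NF-κB at secondary response genes, and it rose from 9.15, 14.9, 14.1 and 13.6 to 892, 917, 1019 and 931 CPM, a 72.5-fold difference between the group means. Tnfaip3 encodes the ubiquitin-editing enzyme known as TNFAIP3, which shuts signalling down upstream of the IκB kinases, and it rose from 46.9, 43.9, 48.6 and 52.6 to 1831, 2024, 1886 and 1749 CPM, a 39.0-fold difference. Bcl3, a nuclear IκB-like protein that binds dimers lacking a transactivation domain, rose from 16.3, 17.3, 25.9 and 19.4 to 98.1, 117, 106 and 102 CPM. Its change of 2.43 (SE 0.21) was the smallest among the inhibitors.

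**Figure D1:**
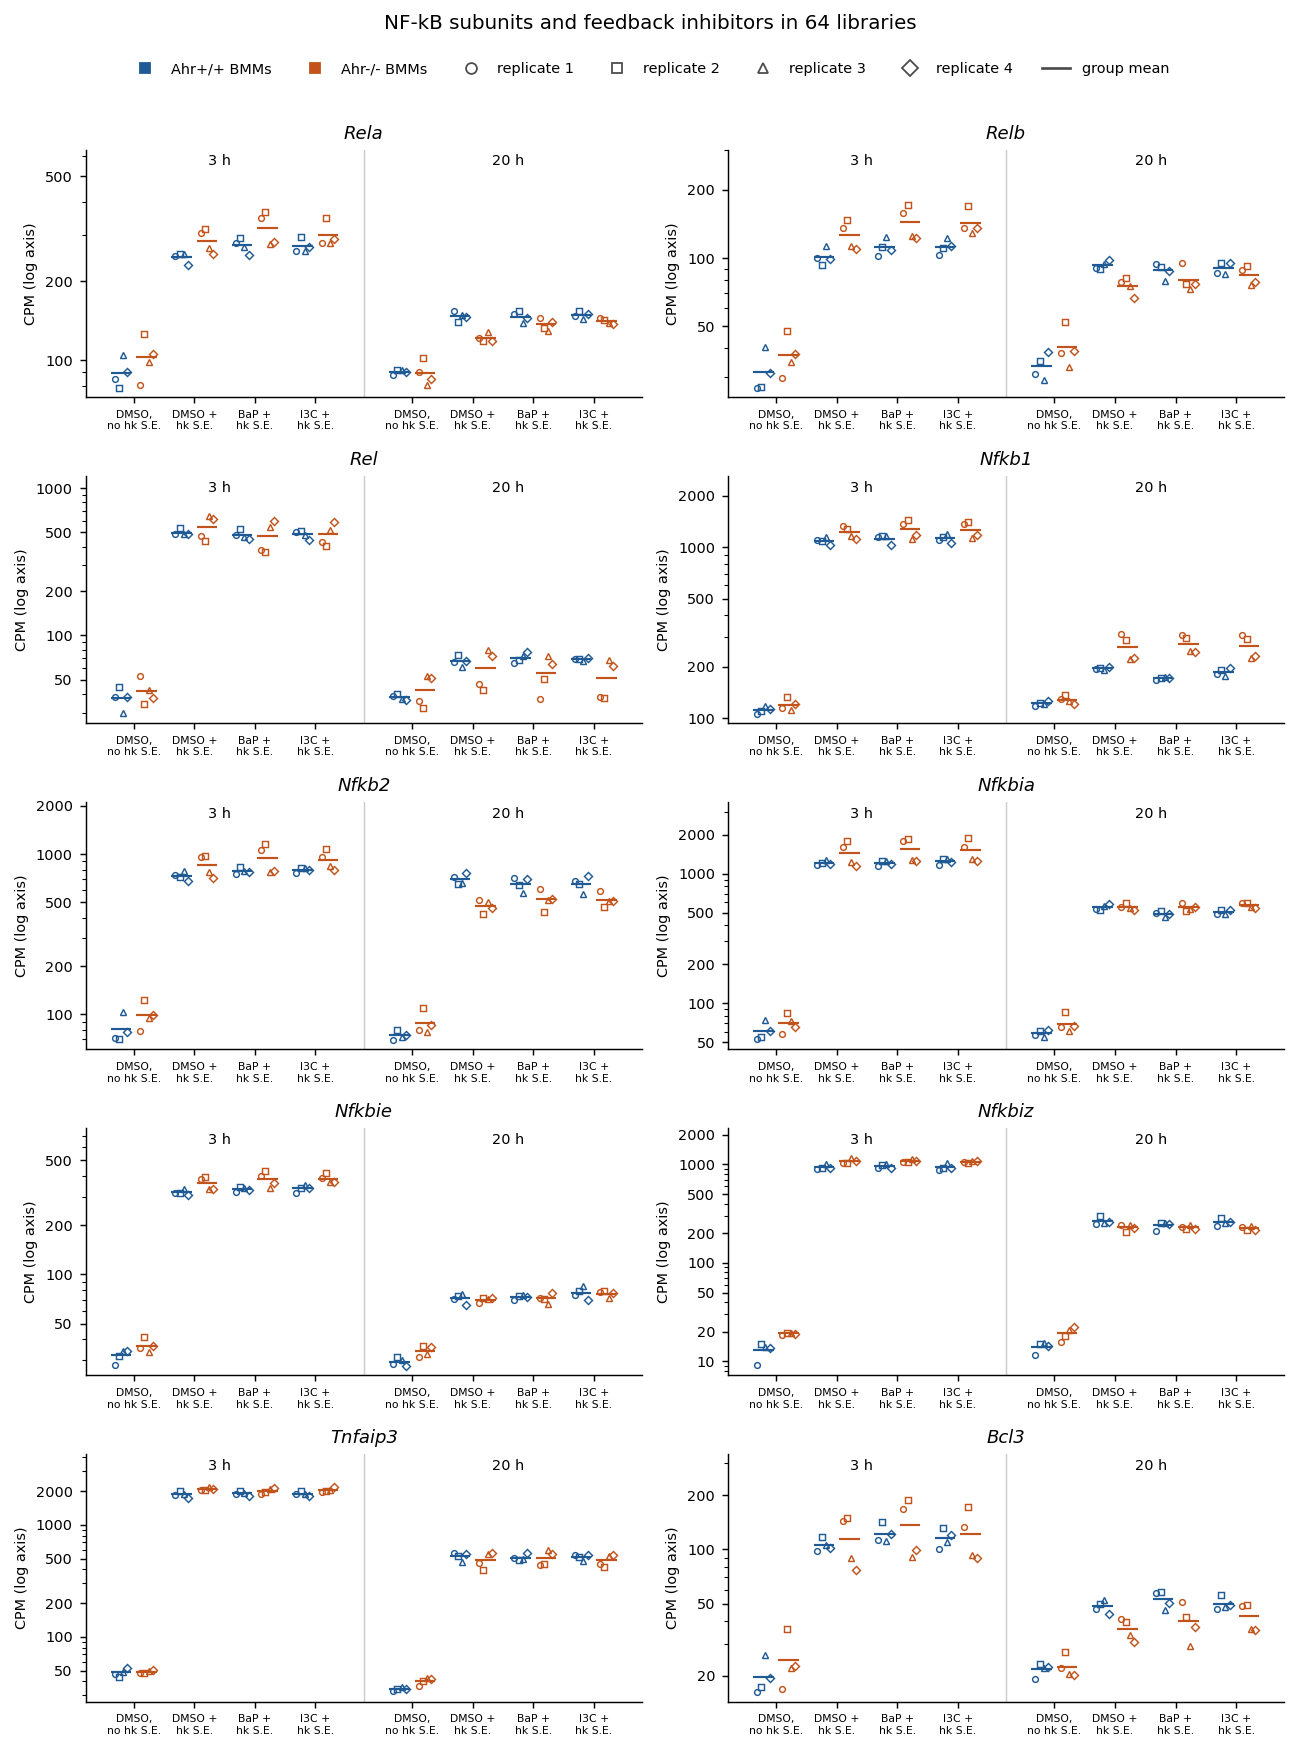
Normalized level of each of the 10 members (CPM, log axis) in all 64 libraries by group, with 1 panel per gene, 1 point per library, colour for the genotype, a symbol for each replicate number and a bar at the group mean. In every panel the activated libraries at 3 h stand above the unactivated ones, and in Ahr-/- BMMs the spread of Rel, Bcl3 and Nfkbia is wide.

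The changes at 3 h in Ahr-/- BMMs were 1.48, 1.75, 3.69, 3.35 and 3.11 for Rela, Relb, Rel, Nfkb1 and Nfkb2, and 4.36, 3.30, 5.82, 5.41 and 2.23 for Nfkbia, Nfkbie, Nfkbiz, Tnfaip3 and Bcl3. The response to activation at 3 h differed between the genotypes for 0 of 10 members, where 0.0138% of all genes passed this test of the difference. At an unadjusted p below 0.05, 1 member and 867 genes stood out. That member was Nfkbiz, with a log2 difference of response (Ahr-/- minus Ahr+/+) of -0.36 (95% confidence interval -0.63 to -0.10, edgeR adjusted p = 0.564). DESeq2 called 0 members as well. The other 9 differences lay between -0.20 and 0.13.

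After 20 h the members were still above unactivated cells, most of them by less than at 3 h. All 10 were DEGs in Ahr+/+ BMMs, where 29.9% of all genes were higher, and 9 of 10 in Ahr-/- BMMs, where 28.3% were. The median change was 1.38 and 1.03. Nfkbiz (4.24), Tnfaip3 (3.96), Nfkb2 (3.24) and Nfkbia (3.23) had the largest changes in Ahr+/+ BMMs, and Nfkb1 (0.68), Rela (0.70) and Rel (0.82) the smallest. In Ahr-/- BMMs the changes were 3.57, 3.59, 2.44 and 2.99 for Nfkbiz, Tnfaip3, Nfkb2 and Nfkbia, and 0.45, 0.90, 1.03, 1.04 and 0.70 for Rela, Relb, Nfkb1, Nfkbie and Bcl3.

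Rel was the member that missed the threshold at 20 h in Ahr-/- BMMs. Its change was 0.48 (SE 0.18, 95% confidence interval 0.11 to 0.85, edgeR adjusted p = 0.0203). With a replicate block within genotype in edgeR, Rel was called (0.47, adjusted p = 0.000209). Its levels were 36.0, 32.0, 52.8 and 51.1 CPM without and 46.8, 42.6, 79.2 and 72.3 CPM with hk S.E., so that within both groups the libraries numbered 3 and 4 were higher than those numbered 1 and 2. Without the activated library 1 the change was 0.59 (adjusted p = 0.00800), without the activated library 2 it was 0.62 (adjusted p = 0.00449), and without the unactivated library 3 it was 0.60 (adjusted p = 0.00848). The call of Bcl3 in the same comparison was lost without the activated library 1 (0.63, adjusted p = 0.0108), the unactivated library 3 (0.65, adjusted p = 0.0101) or the unactivated library 4 (0.65, adjusted p = 0.0105). From the Ahr-/- libraries numbered 1 and 2 alone, the call of Rela was lost (0.31, adjusted p = 0.0286), and from those numbered 3 and 4 alone Rel was called (0.54, adjusted p = 3.20e-05).

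**Figure D2:**
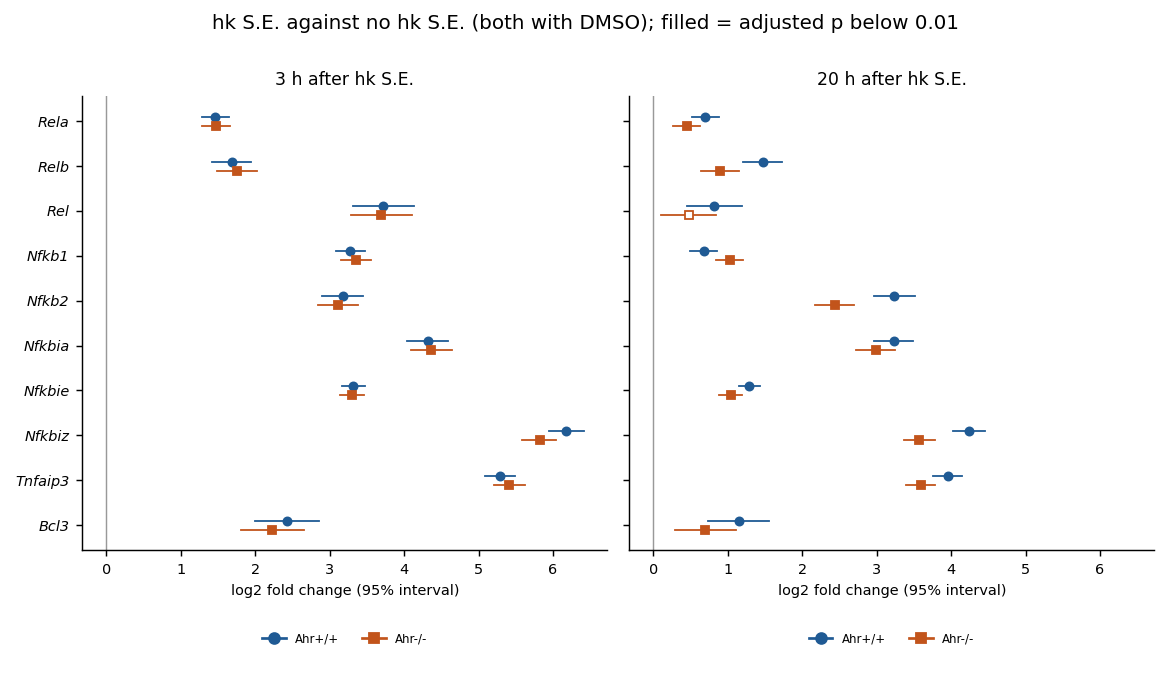
Log2 fold change of each member with hk S.E. against unactivated BMMs (x axis, log2 of the ratio of group means) at 3 h and 20 h in Ahr+/+ and Ahr-/- BMMs, with points for the estimates and lines for 95% confidence intervals, filled where the adjusted p was below 0.01. At 3 h the points of both genotypes lie close together, and at 20 h most points have moved toward 0, while that of Nfkb2 in Ahr+/+ BMMs lies at 3.24 after 3.18.

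Scaling the libraries by total counts in place of TMM moved the median change of all genes by -0.67 at 3 h in both genotypes and by -0.37 and -0.31 at 20 h in Ahr+/+ and Ahr-/- BMMs. The split of DEGs at 3 h in Ahr+/+ BMMs was then 1806 higher and 8598 lower, in place of 3525 and 4697. At 20 h it was 2655 and 6370 in place of 4347 and 4173. The splits in Ahr-/- BMMs were 1856 and 8572 in place of 3702 and 4628 at 3 h, and 2575 and 5607 in place of 4115 and 3783 at 20 h. Every member still had a positive change in these 4 comparisons, and the calls of Rel at 20 h in Ahr+/+ BMMs (0.45, adjusted p = 0.0280), and of Rela (0.14, adjusted p = 0.161) and Bcl3 (0.39, adjusted p = 0.0854) at 20 h in Ahr-/- BMMs were lost.

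The members separated in Ahr+/+ BMMs into those that were kept and those that fell between 3 h and 20 h of hk S.E. In Ahr+/+ BMMs, 8 of 10 were lower at 20 h, where 26.4% of all genes were, and in Ahr-/- BMMs 10 of 10 were, where 24.3% of all genes were. The mean level of Rel at 20 h was 13.47% of that at 3 h in Ahr+/+ BMMs and that of Nfkb1 18.0%. Nfkbie was at 22.5%, Nfkbiz at 28.1% and Tnfaip3 also at 28.1%. Nfkbia and Bcl3 were at 45.3% and 45.7%, and Rela at 59.7%. Marker sums moved with time in the same Ahr+/+ libraries, with medians that went from 57.2 to 4.36 CPM for neutrophil, from 3.04 to 24.8 CPM for dendritic cell and from 30692 to 20293 CPM for macrophage markers. Activated Ahr-/- libraries went from 40.6 to 5.47, from 1.52 to 7.32 and from 28270.5 to 23020.1 CPM, and the part of these markers in the result was not tested. Scaling by total counts moved the median of all genes by 0.33 and 0.37 here, and the split of DEGs was then 6453 higher and 2688 lower in Ahr+/+ BMMs in place of 4799 and 3844, and 6814 and 2406 in Ahr-/- BMMs in place of 4606 and 3531, with the calls of the members as before.

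Relb and Nfkb2, the pair of the alternative pathway, were the members that did not pass this test in Ahr+/+ BMMs. Relb read 90.3, 89.7, 93.8 and 97.96 CPM at 20 h, or 92.0% of the mean at 3 h, and its log2 difference of -0.12 had a 95% confidence interval of -0.37 to 0.13. Nfkb2 read 724, 655, 659 and 759.9 CPM, or 95.8%, with a log2 difference of -0.06 and an interval of -0.31 to 0.19. Both sets of libraries overlapped those at 3 h. In Ahr-/- BMMs, Relb went to 78.1, 81.9, 75.0 and 66.7 CPM from 135, 147, 113 and 109.8 CPM, which is 59.7% of the mean at 3 h, and Nfkb2 to 520.3, 424, 502 and 462 CPM from 965, 975, 768 and 709.8 CPM, which is 55.8%. Neither gene's libraries overlapped between the times there, as in 54.3% of all genes, and both were DEGs (Relb -0.74, adjusted p = 9.60e-07, Nfkb2 -0.84, adjusted p = 6.20e-08). With the identifier series of the libraries as a covariate, the fall of Relb in Ahr-/- BMMs was -0.48 (adjusted p = 0.0132). The activated Ahr-/- libraries with DMSO all belong to the same series at 3 h and all to a different series at 20 h. For every member, time and series thus cannot be told apart in these libraries. Whether the change between the times differed between the genotypes was not tested as such.

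Without hk S.E. the members were close to level between the times. In Ahr+/+ BMMs 1 member was lower at 20 h, where 2.77% of all genes were, and in Ahr-/- BMMs 0 were, where 3.46% of all genes were. The member was Tnfaip3, which went from 46.9, 43.9, 48.6 and 52.6 to 32.6, 33.9, 35.2 and 33.9 CPM (log2 difference -0.50, SE 0.09, adjusted p = 4.67e-05). Its levels in Ahr-/- BMMs were 48.0, 47.9, 49.8 and 50.2 and 36.0, 40.7, 42.7 and 42.3 CPM (-0.28, adjusted p = 0.0275). The 0 calls in Ahr-/- BMMs stand beside 2 members and 3555 genes with an unadjusted p below 0.05, and DESeq2 called 0 members. An edgeR fit with a replicate block within genotype called Tnfaip3 there (-0.28, adjusted p = 0.00228).

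The response to activation was also compared between the times, and the same split appeared in Ahr+/+ BMMs. This comparison holds the same activated libraries and is no separate support for the split. The response was smaller at 20 h for 8 of 10 members in Ahr+/+ BMMs, where it was smaller for 21.3% of all genes, and for 10 of 10 in Ahr-/- BMMs, where it was for 19.4%. The log2 differences of response in Ahr+/+ BMMs were largest for Rel (-2.90) and Nfkb1 (-2.60), and those of Relb (-0.21, 95% confidence interval -0.57 to 0.15) and Nfkb2 (0.06, interval -0.29 to 0.42) did not pass. Under scaling by total counts, where the median of all genes shifted by 0.31 in Ahr+/+ and 0.36 in Ahr-/- BMMs, the calls of Relb (-0.49, adjusted p = 0.0148) and Nfkb2 (-0.31, adjusted p = 0.121) in Ahr-/- BMMs were lost. The split of all genes was then 5406 larger and 2253 smaller responses in place of 3849 and 3101 in Ahr+/+ BMMs, and 5693 and 1974 in place of 3665 and 2826 in Ahr-/- BMMs. From the Ahr-/- libraries numbered 3 and 4 alone, the difference of Nfkb2 there was -0.36 (adjusted p = 0.0612).

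The counts of the 2 precursor genes changed unequally with time. The ratio of Nfkb2 to Nfkb1 counts within a library was 0.589, 0.648, 0.595 and 0.590 in unactivated Ahr+/+ BMMs at 20 h and 0.672, 0.661, 0.681 and 0.665 after 3 h of hk S.E., and it was 3.75, 3.32, 3.43 and 3.79 after 20 h. In Ahr-/- BMMs the ratio at 20 h of hk S.E. was 1.67, 1.49, 2.24 and 2.04, below every Ahr+/+ library, against 0.617, 0.795, 0.621 and 0.700 without. The BaP and I3C groups showed the same order, with 3.17 to 4.20 in Ahr+/+ and 1.48 to 2.25 in Ahr-/- BMMs at 20 h. In activated libraries at 20 h, with or without ligand, the identifier series and the genotype cannot be told apart. Among the inhibitors, the ratio of Nfkbie to Nfkbia counts was on average 0.498 in unactivated and 0.130 in activated Ahr+/+ BMMs at 20 h, and that of Bcl3 to Nfkbiz 1.57 and 0.184. A ratio within a library shows that a pair changed unequally, and it does not say which member moved. Since the ratios are not divided by gene length, a value above or below 1 does not say which gene of a pair had the higher level.

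**Figure D3:**
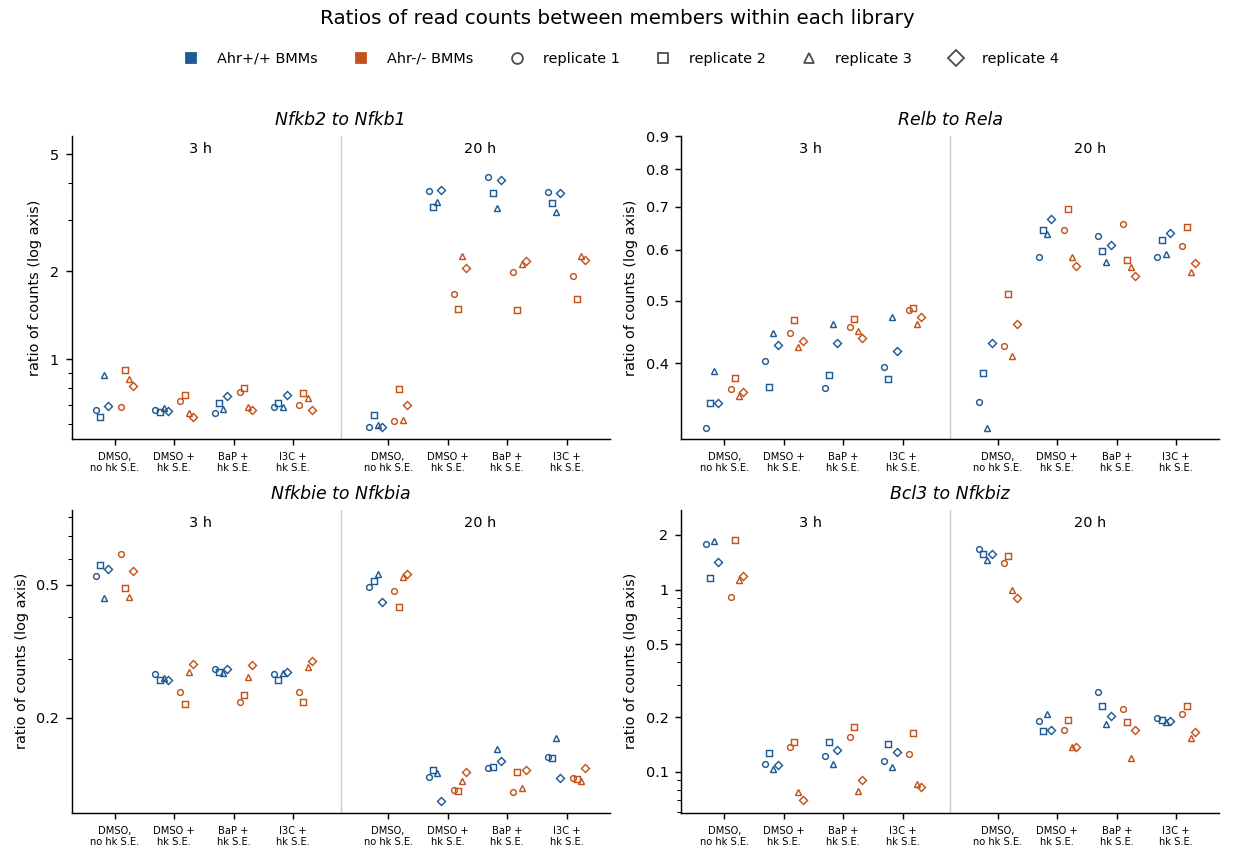
Ratios of counts within a library for 4 pairs of members (y axis, log scale, no unit) by group, with 1 point per library, colour for the genotype and a symbol for each replicate number. The ratio of Nfkb2 to Nfkb1 lies between 3.17 and 4.20 in the activated Ahr+/+ libraries at 20 h and between 1.48 and 2.25 in the activated Ahr-/- libraries at 20 h.

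Levels per length were compared in TPM, a library-scaled level divided by gene length, with the union of a gene's exons as its length. Nfkbia led in each of the groups without ligand that are described here. In unactivated Ahr+/+ BMMs at 3 h it stood at 149.7 ± 22.1 TPM (SD, n = 4), followed by Rela at 115 ± 12.7 TPM, whose range overlapped that of Nfkbia, and by Nfkb2 at 69.8 ± 12.6 TPM. Nfkbie, Nfkb1, Relb, Bcl3 and Tnfaip3 followed between 41.6 and 26.3 TPM, each overlapping its neighbour in this order, and Rel (20.1 ± 3.65 TPM) and Nfkbiz (10.2 ± 2.00 TPM) were lowest.

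After 3 h of hk S.E. the order in Ahr+/+ BMMs was Nfkbia (1842 ± 85.3 TPM), Tnfaip3 (633 ± 33.0 TPM), Nfkbiz (458 ± 32.1 TPM) and Nfkb2 (389.6 ± 27.4 TPM), with Relb (63.7 ± 6.34 TPM) at the end, and no neighbours overlapped. Nfkbiz had thus moved from the last to the third place. At 20 h Nfkbia (1063 ± 37.3 TPM) was followed by Nfkb2 (474 ± 23.5 TPM) and Tnfaip3 (227 ± 16.2 TPM), Relb, Nfkbie and Bcl3 overlapped their neighbours between 74.4 and 60.9 TPM, and Rel (27.9 ± 2.26 TPM) was last. In activated Ahr-/- BMMs at 20 h the first 5 places were those of Ahr+/+ BMMs, with Nfkb2 at 337 ± 36.4 TPM, and Nfkbie, Nfkb1 and Relb overlapped between 74.6 and 62.7 TPM. The place of Nfkb1 depends on its length, which is 12061 bases as the union of exons. With the longest transcript of the basic annotation it ranked 3 in place of 6 after 3 h and 6 in place of 9 after 20 h in Ahr+/+ BMMs, and 4 in place of 7 after 20 h in Ahr-/- BMMs, where Rela then ranked 6.

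Few members were called between the genotypes in unactivated cells. At 3 h, 1 of 10 members was a DEG between the genotypes, where 1.21% of all genes were, and at 20 h 1 of 10 was, where 0.702% were. Both calls were of Nfkbiz, which was higher in Ahr-/- BMMs. At 3 h it read 9.15, 14.9, 14.1 and 13.6 CPM in Ahr+/+ and 18.7, 19.5, 19.5 and 19.0 CPM in Ahr-/- BMMs (log2 difference 0.56, SE 0.10, adjusted p = 0.000264). At 20 h it read 11.5, 14.9, 15.2 and 14.3 and 15.8, 17.9, 20.6 and 22.6 CPM (0.46, SE 0.10, adjusted p = 0.00340). The genotypes did not overlap at either time, which held for 5.94% of all genes at 3 h and 8.28% at 20 h. Of the 10 members, 1 at 3 h and 3 at 20 h did not overlap. The estimates were positive for 10 members at 3 h and for 9 at 20 h. An unadjusted edgeR p below 0.05 was found for 4 and 5 members, beside 1452 and 1814 genes. The split of all DEGs at 3 h was 35 higher and 141 lower, and 49 and 92 under scaling by total counts, which left both calls.

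The call at 20 h was lost without the Ahr-/- library 3 (0.43, adjusted p = 0.0226) or 4 (0.37, adjusted p = 0.0533), and without the Ahr+/+ library 1 (0.38, adjusted p = 0.0422) or 4 (0.47, adjusted p = 0.0116). From the Ahr-/- libraries numbered 1 and 2 alone it was 0.27 (adjusted p = 0.185), and from those numbered 3 and 4 alone 0.63 (adjusted p = 9.47e-05). The latter also gave calls of Rel (0.45, adjusted p = 0.000483) and Tnfaip3 (0.33, adjusted p = 0.00147) at 20 h. Over all alternatives these estimates ran from -0.15 to 0.45 for Rel and from 0.18 to 0.33 for Tnfaip3. With the identifier series as a covariate the difference of Nfkbiz was 0.48 (adjusted p = 0.0406), and with no filter on low counts 0.47 (adjusted p = 0.0109). In a fit of the 2 groups compared alone, the difference was 0.58 at 3 h (adjusted p = 0.106) and 0.50 at 20 h (adjusted p = 0.183).

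After 3 h of hk S.E., 0 of 10 members differed between the genotypes, where 2.83% of all genes did. All 10 estimates were positive, between 0.12 and 0.32, and 5 members and 2778 genes had an unadjusted p below 0.05, with a lowest adjusted p of 0.125 among the members. DESeq2 called 0 members too, and so did scaling by total counts, which turned the split of all DEGs from 177 higher and 234 lower to 241 and 200. Relb, the AhR partner, read 135, 147, 113 and 109.8 CPM in Ahr-/- and 100.2, 92.8, 113 and 98.7 CPM in Ahr+/+ BMMs, which overlapped (log2 difference 0.32, 95% confidence interval 0.07 to 0.58, adjusted p = 0.129). From the Ahr-/- libraries numbered 1 and 2 alone, Nfkbia (0.49, adjusted p = 0.00188) and Nfkb1 (0.26, adjusted p = 0.00699) were called. The Nfkbia libraries read 1610.4, 1797, 1220.3 and 1148 CPM in Ahr-/- against 1171, 1217, 1276 and 1188 CPM in Ahr+/+ BMMs.

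After 20 h of hk S.E., the 2 precursor genes differed between the genotypes in opposite directions. These were 2 of 10 members, where 12.5% of all genes were DEGs. Nfkb1 was higher without AhR, at 312, 285, 224 and 226 CPM in Ahr-/- against 193, 197, 192 and 201 CPM in Ahr+/+ BMMs (log2 difference 0.42, SE 0.09, adjusted p = 0.000506). Nfkb2 was lower, at 520.3, 424, 502 and 462 against 724, 655, 659 and 759.9 CPM (-0.55, SE 0.13, adjusted p = 0.000870). In both genes all Ahr-/- libraries stood on 1 side of all Ahr+/+ libraries, as did those of 20.4% of all genes tested. The groups with ligand showed the same order of levels. Nfkb1 lay between 244 to 305 CPM in Ahr-/- and 168 to 174 CPM in Ahr+/+ BMMs after BaP, and between 225 to 309 and 176 to 197 CPM after I3C. Nfkb2 lay between 432 to 604 and 574 to 706 CPM after BaP, where 1 library of each genotype fell into the range of the other, and between 465 to 592 and 559.9 to 729 CPM after I3C.

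From the Ahr-/- libraries numbered 1 and 2 alone, the difference was 0.61 for Nfkb1 (adjusted p = 6.56e-09) and -0.56 for Nfkb2 (adjusted p = 0.00276). From those numbered 3 and 4 alone it was 0.20 for Nfkb1 (adjusted p = 0.00831) and -0.54 for Nfkb2 (adjusted p = 8.65e-05), so that the estimate for Nfkb1 differed between the kinds. The call of Nfkb1 was lost without the activated Ahr-/- library 1 (0.32, adjusted p = 0.0106) and in a fit of the 2 groups alone (0.45, adjusted p = 0.0306). At 20 h all Ahr-/- libraries belong to 1 series of library identifiers and all activated Ahr+/+ libraries to another, so that in activated cells the series and the genotype cannot be told apart there. With the series as a covariate across all libraries, the difference was 0.47 for Nfkb1 (adjusted p = 0.0129) and -0.30 for Nfkb2 (adjusted p = 0.295). The summed dendritic cell markers moved with the genotype in the same groups, at 20.4 to 39.6 CPM in Ahr+/+ and 3.82 to 8.54 CPM in Ahr-/- BMMs, with 3 of the 6 genes passing the filter. Over all libraries Ccr7 reached 37.8 CPM, Zbtb46 1.23, Flt3 1.198, Clec9a 0.281, Xcr1 0.161 and Cd209a 0.0314 CPM. The part of these markers in the result was not tested. Scaling by total counts turned the split of all DEGs from 736 higher and 1075 lower in Ahr-/- BMMs to 1206 and 742, and left both calls.

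Of the other members at 20 h of hk S.E., Rela (-0.28, adjusted p = 0.0213), Relb (-0.30, adjusted p = 0.0824) and Bcl3 (-0.42, adjusted p = 0.144) had negative estimates and missed the threshold. Their libraries did not overlap between the genotypes, and this held for 6 of 10 members, against 20.4% of all genes. Relb read 78.1, 81.9, 75.0 and 66.7 CPM in Ahr-/- against 90.3, 89.7, 93.8 and 97.96 CPM in Ahr+/+ BMMs. By DESeq2, Rela was called (-0.29, adjusted p = 0.00749). Nfkbia (0.01, 95% confidence interval -0.23 to 0.24) and Nfkbie (-0.03, interval -0.17 to 0.12) had estimates close to 0. From the Ahr-/- libraries numbered 1 and 2 alone, Rel (-0.58, adjusted p = 0.000322) and Tnfaip3 (-0.31, adjusted p = 0.00329) were called in addition. In both genes the Ahr-/- libraries numbered 3 and 4 lay higher. Over all alternatives the estimates ran from -0.58 to 0.18 for Rel and from -0.31 to 0.07 for Tnfaip3. Rel read 46.8, 42.6, 79.2 and 72.3 CPM in Ahr-/- against 66.4, 73.8, 61.0 and 67.0 CPM in Ahr+/+ BMMs. From the Ahr-/- libraries numbered 3 and 4 alone, Relb (-0.39, adjusted p = 0.00474), Rela (-0.26, adjusted p = 0.00625) and Bcl3 (-0.58, adjusted p = 0.000401) were called.

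**Figure D4:**
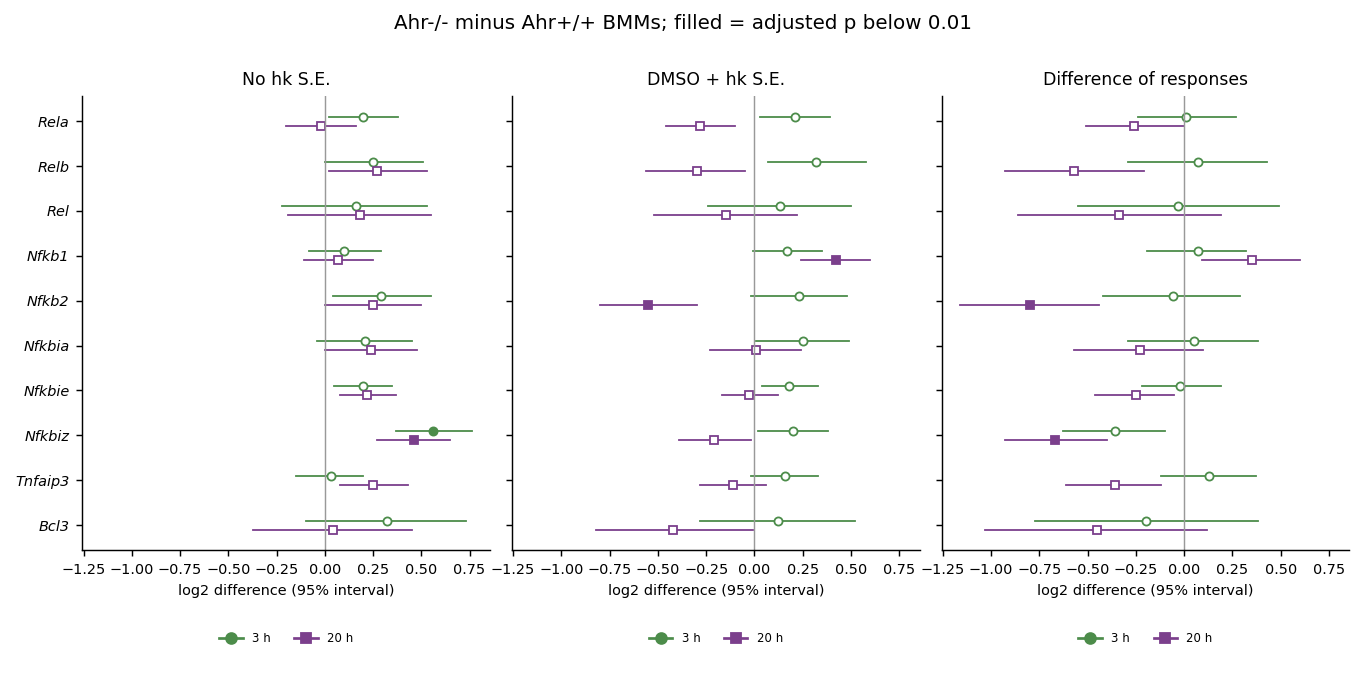
Log2 difference of each member between Ahr-/- and Ahr+/+ BMMs (x axis, positive where Ahr-/- is higher) without hk S.E. and after hk S.E., at 3 h and 20 h, with 95% confidence intervals. Nfkbiz lies at 0.56 and 0.46 in unactivated cells, and Nfkb1 at 0.42 and Nfkb2 at -0.55 after 20 h of hk S.E.

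The response to activation at 20 h was smaller in Ahr-/- BMMs for 2 of 10 members, where the responses of 4.41% of all genes differed. They were Nfkb2, with a log2 difference of response of -0.80 (SE 0.18, 95% confidence interval -1.16 to -0.44, adjusted p = 0.00177), and Nfkbiz, with -0.67 (SE 0.13, adjusted p = 0.000461). Nfkb2 had risen 9.45-fold in Ahr+/+ and 5.42-fold in Ahr-/- BMMs. The difference of Nfkbiz holds its higher level in unactivated Ahr-/- cells, since its levels after 20 h of hk S.E. were 242, 205, 245 and 224 CPM in Ahr-/- and 247, 298, 254 and 259 CPM in Ahr+/+ BMMs. Without the unactivated Ahr-/- library 2 the difference of Nfkb2 was -0.68 (adjusted p = 0.0103). In a fit of the 4 groups alone that of Nfkbiz was -0.66 (adjusted p = 0.0274), and from the Ahr-/- libraries numbered 1 and 2 alone it was -0.50 (adjusted p = 0.0420), where Tnfaip3 (-0.49, adjusted p = 0.00365) and Nfkb1 (0.48, adjusted p = 0.000931) were called. Relb had a difference of -0.57 (adjusted p = 0.0312), which DESeq2 called (-0.61, adjusted p = 0.00983). Tnfaip3 (-0.36, adjusted p = 0.0490) and Nfkb1 (0.35, adjusted p = 0.0809) were next. An edgeR fit with a replicate block within genotype also called Relb (-0.56, adjusted p = 0.00286), Tnfaip3 (-0.37, adjusted p = 0.00518) and Nfkb1 (0.33, adjusted p = 0.00239). Scaling by total counts left the 2 calls and turned the split of all genes from 303 larger and 338 smaller responses to 440 and 265.

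Several members varied more between the libraries of a group in Ahr-/- BMMs. The median coefficient of variation over the 8 groups of a genotype was 24.6% against 6.43% for Rel, 27.1% against 9.66% for Bcl3 and 15.6% against 4.32% for Nfkbia, while it was 4.96% against 8.53% for Nfkbiz. In Ahr-/- BMMs the libraries numbered 1 and 2 lay below those numbered 3 and 4 for Rel in 7 of 8 groups, for Tnfaip3 in 8 of 8 and for Nfkbiz in 4 of 8. They lay above them for Nfkb1 and Bcl3 in 7 of 8 groups, for Nfkbia and Relb in 5 of 8, for Rela and Nfkbie in 4 of 8 and for Nfkb2 in 3 of 8. After 3 h of hk S.E., for example, Rel read 472, 438, 650.0 and 619 CPM and Bcl3 143, 149.9, 89.4 and 76.9 CPM. The fibroblast markers that split the same libraries are given above, and their part in these levels was not tested.

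Exposure to the AhR ligands before activation changed 0 of the 10 members in any of 8 comparisons with DMSO. Of all genes, BaP changed 0.0482% at 3 h and 0.234% at 20 h in Ahr+/+ BMMs, and 0.0275% and 0.0138% in Ahr-/- BMMs. With BaP at 20 h in Ahr+/+ BMMs these were 14 higher and 20 lower genes, and 11 and 26 under scaling by total counts. The number of genes depended on the fit, with 36 and 54 by DESeq2 and 122 and 149 with a replicate block within genotype. No member was called in either of these fits. I3C changed 0.131% and 0.509% in Ahr+/+ BMMs and 0.0206% and 0.206% in Ahr-/- BMMs. The estimates for the members lay between -0.22 and 0.24, and the outermost limits of their 95% confidence intervals were -0.59 and 0.64. BaP and I3C were compared with the same DMSO libraries and were given at different doses, so that their values are given side by side only.

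Relb read 102, 112, 124 and 109 CPM after BaP and 103, 111, 123 and 113 CPM after I3C at 3 h in Ahr+/+ BMMs, against 100.2, 92.8, 113 and 98.7 CPM after DMSO. The log2 differences were 0.14 for BaP and 0.15 for I3C. At 20 h they were -0.07 and -0.04, with 94.5, 91.5, 79.4 and 88.1 CPM after BaP and 86.2, 95.3, 84.8 and 95.3 CPM after I3C. In Ahr-/- BMMs, BaP gave 0.19 at 3 h and 0.09 at 20 h, and I3C gave 0.17 and 0.15. The lowest adjusted p of all 80 values was that of Nfkb1 with BaP at 20 h in Ahr+/+ BMMs, where 168, 173, 174 and 171 CPM stood below 193, 197, 192 and 201 CPM after DMSO in all 4 libraries, as 9.05% of all genes did not overlap (log2 difference -0.19, 95% confidence interval -0.37 to -0.01, adjusted p = 0.454). At an unadjusted p below 0.05 this was the only member in its comparison, where 1510 genes stood out. Rela with I3C at 20 h in Ahr-/- BMMs was the other such value (0.21), beside 672 genes, and in the other 6 comparisons 0 members were below 0.05, beside 258 to 862 genes. DESeq2 called 0 of the 80. For Nfkb1 with BaP at 20 h in Ahr+/+ BMMs, 17 alternative fits gave log2 differences between -0.22 and -0.18. The lowest adjusted p of these edgeR and DESeq2 fits was 0.0414, so that this value depended on the fit while remaining above the threshold.

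The effect of BaP differed between the genotypes for 0 members at 3 h and 20 h, where 0.0138% and 0% of all genes did, and so did that of I3C, where 0% and 0% did. The 40 estimates of this difference (Ahr+/+ minus Ahr-/-) lay between -0.25 and 0.26, and the outermost limits of their 95% confidence intervals were -0.75 and 0.78. At an unadjusted p below 0.05, 0 members and 241 to 679 genes stood out in these 4 comparisons, and DESeq2 called 0 of the 40. Ahrr, the repressor induced by AhR, passed the same edgeR test only for the early BaP comparison, with a difference of 3.69. Its differences of 1.42 (BaP, 20 h), 1.77 (I3C, 3 h) and 1.63 (I3C, 20 h) missed the threshold. The test thus missed large differences of a known AhR target. Its 0 calls do not show that the ligands acted alike on the members in both genotypes.

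**Figure D5:**
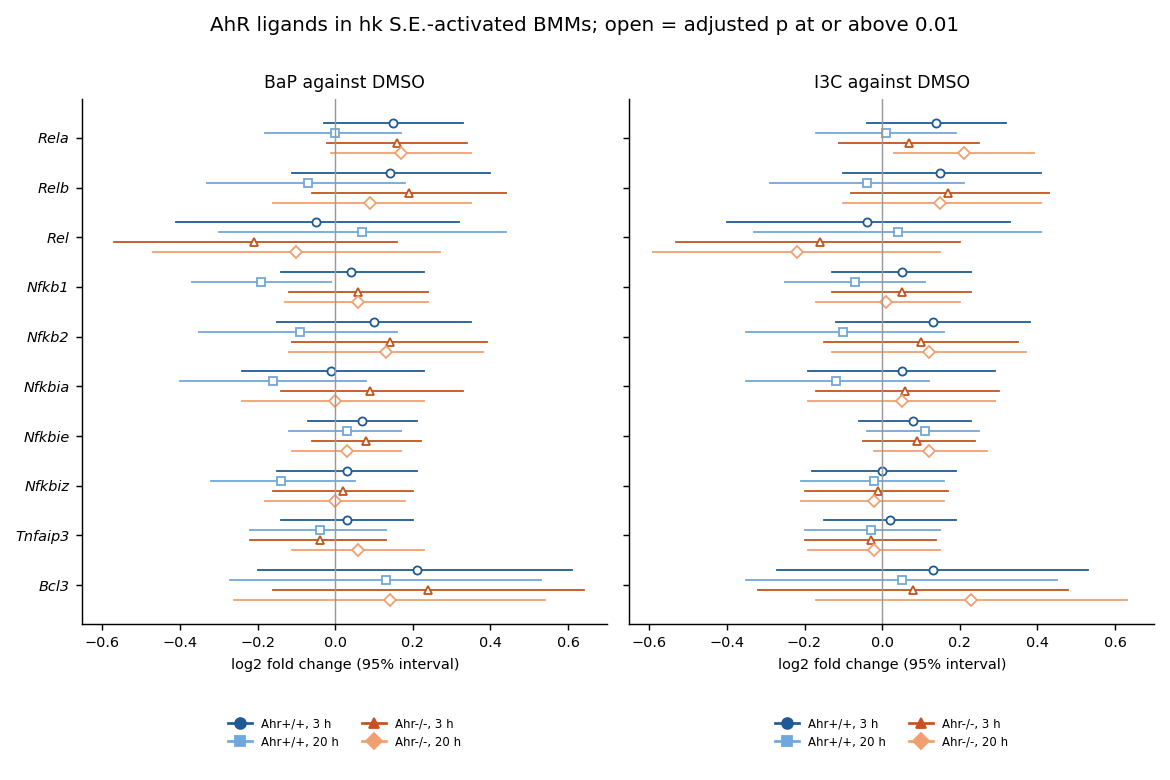
Log2 difference of each member after BaP or I3C against DMSO in activated BMMs (x axis), at 3 h and 20 h in Ahr+/+ and Ahr-/- BMMs, with 95% confidence intervals. All estimates lie between -0.22 and 0.24.

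A list of 77 other genes of the pathway, all of which passed the filter, gives the surroundings of the members. After 3 h of hk S.E. in Ahr+/+ BMMs, 53 rose and 6 fell, and in Ahr-/- BMMs 55 and 6 did, where 24.2% and 25.5% of all genes rose and 32.3% and 31.8% fell. At 20 h it was 58 and 4 in Ahr+/+ and 53 and 5 in Ahr-/- BMMs, where 29.9% and 28.3% of all genes rose and 28.7% and 26.0% fell. Among 21 NF-κB target genes, 20 rose at 3 h and 21 at 20 h in Ahr+/+ BMMs, with the largest changes at 3 h in Nos2 (1015 CPM on average after activation), Il6 (566 CPM), Ptgs2 (1323 CPM), Il12b (82.2 CPM) and Il1b (4127 CPM). These genes were low without hk S.E., with means from 0.0732 CPM (Il12b) to 5.55 CPM (Il1b), so that their fold changes rest on a low unactivated level. At 20 h Il6 (480.5 CPM), Nos2 (266 CPM), Ptgs2 (756 CPM), Ccl5 (6024 CPM) and Il12b (79.2 CPM) had the largest.

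Of the 23 receptor adaptors and kinases, 14 rose and 5 fell at 3 h in Ahr+/+ BMMs. Map3k14, the kinase that starts processing of the Nfkb2 product, fell by 2.24 on the log2 scale (SE 0.13, from 27.8 to 5.86 CPM), at a time when Nfkb2 RNA rose. Tab1 fell by 1.67, Card9 by 1.46 and Irak4 by 1.05. In the group of 22 ubiquitin-editing and other inhibitors, 12 rose and 1 fell, which was Pdlim2 (-0.57). Of 8 genes of the IκB kinase complex 5 rose, and of 3 other IκB genes 2 did. At 20 h the falls were of Nfkbid (-0.94), Irak4 (-0.81), Tnip3 (-0.60) and Map3k14 (-0.40). Between 3 h and 20 h of hk S.E., 13 genes of the list rose and 41 fell in Ahr+/+ BMMs, and 13 and 44 did in Ahr-/- BMMs, where 33.0% and 31.7% of all genes rose and 26.4% and 24.3% fell.

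Between the genotypes, 3 genes of the list were higher and 1 lower in unactivated Ahr-/- BMMs at 3 h, which were Ccl5 (1.11), Traf1 (0.61), Birc3 (0.28) and Ccl4 (-0.95), or 5.19% of the list against 1.21% of all genes. At 20 h Ccl5 (1.05), Traf1 (0.46) and Ccl4 (-0.76) were called again, or 3.90% against 0.702%. After 3 h of hk S.E. 2 genes were higher, Traf3 (0.45) and Ikbkb (0.38), the gene of a catalytic subunit of the IκB kinase complex. These were 2.60% of the list against 2.83% of all genes. After 20 h, 8 were higher and 7 lower, or 19.5% against 12.5%. The cytokine genes Csf2 (12.03 against 1.37 CPM), Csf3 (6.26 against 1.05 CPM), Il1b (4603 against 1729 CPM) and Cxcl1 (100.0 against 43.8 CPM) were higher in Ahr-/- BMMs, and Gadd45b (95.3 against 314 CPM) and Nos2 (108 against 266 CPM) were lower. Il1b, for example, ranged from 2356 to 6636 CPM in Ahr-/- and from 1610.1 to 1988 CPM in Ahr+/+ libraries. As for the members, the identifier series and the genotype cannot be told apart in activated cells at 20 h. This limit holds for these genes and for the differences of response that follow. The response to activation at 20 h was smaller in Ahr-/- BMMs for 5 genes, Gadd45b (-1.81), Ccl5 (-1.58), Traf2 (-0.74), Traf1 (-0.52) and Birc3 (-0.34), and larger for 0, or 6.49% of the list against 4.41% of all genes. Of these 5, Traf1 and Ccl5 were also called higher in unactivated Ahr-/- BMMs at 20 h, which their differences hold. Traf1 read 21.8 against 15.7 CPM without and 458 against 479 CPM with hk S.E. in Ahr-/- against Ahr+/+ BMMs. Ccl5 read 10.6 against 5.09 CPM without and 4166 against 6024 CPM with hk S.E. The ligands changed 0 genes of the list in all 8 comparisons.

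For each member, the genes with the most similar profile were sought among the tested genes that are not members. Profiles were compared over the 16 group means, as the root mean square difference of centred log2 CPM. A smaller value is a closer profile, and the median over all genes tested ran from 0.872 for Rela to 2.42 for Nfkbiz. Rela was closest to Cmtr1 (0.0539) and Yju2 (0.0891), and Relb to Syk (0.0798) and Trim56 (0.116). Nfkb2 was closest to Nfkbib (0.147), the gene of IκBβ, and to Tap1 (0.147), and Nfkb1 to Cers6 (0.160) and Map3k8 (0.166). Rel stood next to 3110001I22Rik (0.153) and Kpna3 (0.173).

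Among the inhibitors, Nfkbia was closest to Rab11fip1 (0.150) and Pde4b (0.150), and Nfkbie to Rasgef1b (0.182) and Mapkapk2 (0.182). Bcl3 was closest to Dyrk2 (0.118) and Sp110 (0.121). Tnfaip3 was next to Lpar1 (0.204) and Enpp4 (0.234), and Nfkbiz to Gbp7 (0.259) and Enpp4 (0.325). The closest pair of members was Nfkb1 and Nfkbie (0.215), followed by Nfkbiz and Tnfaip3 (0.237), and Rela and Relb differed by 0.294.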

How the data were processed

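The members and the pathway and marker lists were chosen with earlier results of these data known. RNA of 64 samples was sequenced by the authors as stranded mRNA libraries, trimmed, aligned to mm10 with HISAT2 2.1.0 and counted on GENCODE M22 genes with HTSeq 0.9.1 (bcl2fastq 2.19.0.316 and these versions are from the submitters' processing notes). The deposited files hold raw counts of read pairs per gene in each sample, and 19.2% to 25.1% of pairs in lines that name no gene were left out. A table of values transformed by the authors was not used.

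Analysis of the counts used edgeR 4.0.16 (R 4.3.3, limma 3.58.1), with filterByExpr at a min.count of 10, TMM, 16 group means over 64 libraries, 48 residual and 5.06 prior degrees of freedom, Benjamini-Hochberg adjustment over 14537 genes per comparison and a threshold of 0.01. CPM and TPM were computed from these counts, with a prior count of 2 for log2 CPM in the profiles. Confidence intervals at 95% rest on SE = |log2 fold change| / sqrt(F). The methods give 4 mice per genotype, and no source used here ties a replicate number to a mouse. Depth was 12152496 to 233047331 counts on genes per sample. The fit was tested on simulated data.

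Named were all members in every comparison. Of the pathway list, up to 5 called genes with the largest rise and 5 with the largest fall were named for activation in Ahr+/+ BMMs, and up to 6 called genes for genotype and ligand. For each member the 2 genes with the closest profile among those that are not members were named, and Ahr and Ahrr as a check. The 6 neutrophil and 6 dendritic cell markers and Il1b library ranges were given after their values were seen. Alternatives were DESeq2 1.42.0, other scaling, no filter, a threshold of 0.05, the compared groups alone, the identifier series as covariate or within 1 series, replicate blocks and leaving out each library. Added after seeing the data were fits with the Ahr-/- libraries of 2 replicate numbers left out, and another gene length.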

Additional observations from a re-analysis of the deposited data

Results flagged for a closer look

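Single libraries stood far from the other 3 of their group in 4 of the 160 sets of 4 libraries examined (10 members in 16 groups), and chance alone gives about 1 in 20. Rela read 347 CPM in library 2 of Ahr-/- BMMs after I3C at 3 h, where the others read 279 to 288. Rel read 533 CPM in library 2 of activated Ahr+/+ BMMs after DMSO at 3 h, where the others read 484 to 488. Nfkb1 read 1027 CPM in library 4 of Ahr+/+ BMMs after BaP at 3 h, where the others read 1144 to 1162. Nfkbiz read 209 CPM in library 1 of Ahr+/+ BMMs after BaP at 20 h, where the others read 248 to 253.

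The response to 20 h of hk S.E. differed between the genotypes, by a test of the difference itself, for Nfkb2 (log2 difference -0.80 in Ahr-/- minus Ahr+/+ BMMs) and for Nfkbiz (-0.67). At 20 h all Ahr-/- libraries carry identifiers of 1 series, so that this series and the genotype cannot be told apart in activated cells.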

How the results depend on the processing

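No member's change turned its sign where it was called. Calls of members between the genotypes (4 of 40) fell to 1 in fits of the compared groups alone and to 1 with the identifier series as a covariate, and were 3 to 4 when single libraries were left out. Of the calls on the response by genotype (2 of 20), 1 was left in fits of the compared groups alone, 5 were made with a replicate block within genotype and 4 at a threshold of 0.05, and leaving out each library gave 1 to 2. In fits added after seeing the data, the Ahr-/- libraries numbered 1 and 2 alone gave 7 calls between the genotypes, and those numbered 3 and 4 alone 9. The cause was not tested. These fits keep 2 libraries per Ahr-/- group, along a split that several members show themselves. Their calls are thus no separate support for differences between the genotypes. Calls on activation (39 of 40) ranged from 36 to 40, those on time (19) from 18 to 20 and those on the response by time (18) from 16 to 18, and those on ligands (0) were 0 in every alternative run.

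The replicate numbers share no stated animal or day. Same-numbered libraries had deviations that correlated above 0.1 in 54 of 112 Ahr+/+ pairs, 104 of 112 Ahr-/- pairs and 3 of 32 pairs across genotypes, and 31 of 32 and 25 of 32 libraries were closest to their own number. The paired analysis with a replicate block across genotypes gave 4 calls, and the block within genotype gave 40 calls on activation and 20 on time. The calls it added were of Rel for activation at 20 h in Ahr-/- BMMs (0.47, adjusted p = 0.000209), of Tnfaip3 between the times in unactivated Ahr-/- BMMs (-0.28, adjusted p = 0.00228) and, for the response by genotype at 20 h, of Relb (-0.56, adjusted p = 0.00286), Tnfaip3 (-0.37, adjusted p = 0.00518) and Nfkb1 (0.33, adjusted p = 0.00239). Libraries of the series RIB0015 alone kept the call or its absence in 170 of 170 values. This series holds no Ahr-/- library at 20 h, so that only 170 of the 280 member tests could be run. No comparison with an Ahr-/- group at 20 h is among them, and those calls were not checked in this way. With 4 libraries per group, the outermost limits of the ligand intervals were -0.59 and 0.64.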
